A study of Mus musculus with 6 samples.

Results

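The red cell membrane, haem and globin genes are 9 late erythroid genes chosen by name: the adult beta-globin genes Hbb-bs and Hbb-b1, the alpha-globin gene Hba-a1, the haem enzyme gene Alas2, the membrane genes Slc4a1, Rhag and Ermap, and the carbonic anhydrase genes Car1 and Car2. Rows were found by Entrez Gene number, which gave 8 of the 9 among 23185 named genes. Hba-a1 was not analysed here. Their levels were read on 6 arrays (Affymetrix GeneChip Mouse Gene 2.0 ST), 3 of WT and 3 of Merit40-/- mice. The RNA was from hematopoietic stem cells (HSCs) taken fresh from the marrow of mice labelled young, without culture or treatment, and purified in 2 rounds of sorting as CD150+CD48- cells of the LSK gate (lineage-negative, Sca-1+, c-Kit+). Merit40 is the protein of Babam1. The labels give genotype as the difference between the groups and number the arrays as biological replicates, but name no strain, sex, kind of knockout allele or number of mice per array, so the p-values measure the spread between these arrays.

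Haem is built in the mitochondrion and cytosol from glycine and succinyl-CoA, and Alas2 encodes the erythroid form of the enzyme of the first step. Red cell precursors join haem to alpha- and beta-globin chains to make haemoglobin. They also build a membrane rich in the anion exchanger band 3 (Slc4a1) and in the Rh-associated glycoprotein (Rhag), and hold carbonic anhydrases that interconvert carbon dioxide and bicarbonate. These genes are most active in erythroblasts, downstream of HSCs, under transcription factors such as GATA1 and KLF1. Globin RNA is so abundant in red cells that a little of it carried along can be read in other samples.

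The promoters of 4 measured genes are shown because GATA and CACCC elements are the classical control sites of erythroid genes. Those of Hbb-b1, Slc4a1, Car1 and Car2 were not analysed here. Each line gives the 250 bases before the transcription start, 5′ to 3′ on the strand of the gene, from RefSeq on GRCm38.p6. Capitals mark matches, on either strand unless stated, to GATA with A or T before it and A or G after it (bound by GATA factors), to CACCC (bound by KLF factors), to CCAAT and, on the gene strand only, to TATAA. The windows are chr7:103827929-103828178 on the minus strand for Hbb-bs, chrX:150547167-150547416 on the plus strand for Alas2, chr4:119189996-119190245 on the minus strand for Ermap and chr17:40810899-40811148 on the plus strand for Rhag.
Hbb-bs: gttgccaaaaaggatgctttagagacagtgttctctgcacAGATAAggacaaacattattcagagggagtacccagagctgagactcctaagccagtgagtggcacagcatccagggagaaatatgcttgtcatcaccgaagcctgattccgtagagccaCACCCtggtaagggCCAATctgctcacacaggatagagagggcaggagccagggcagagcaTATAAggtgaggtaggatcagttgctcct
Alas2: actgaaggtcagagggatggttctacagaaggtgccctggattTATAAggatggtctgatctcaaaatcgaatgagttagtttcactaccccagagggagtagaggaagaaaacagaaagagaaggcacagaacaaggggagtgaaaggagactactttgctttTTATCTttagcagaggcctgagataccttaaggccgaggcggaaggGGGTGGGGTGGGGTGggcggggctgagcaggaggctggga
Ermap: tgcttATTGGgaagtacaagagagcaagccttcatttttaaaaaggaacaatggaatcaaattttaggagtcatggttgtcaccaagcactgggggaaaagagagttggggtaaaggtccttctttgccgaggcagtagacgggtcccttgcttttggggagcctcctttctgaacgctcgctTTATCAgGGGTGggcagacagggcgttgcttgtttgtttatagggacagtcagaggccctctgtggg
Rhag: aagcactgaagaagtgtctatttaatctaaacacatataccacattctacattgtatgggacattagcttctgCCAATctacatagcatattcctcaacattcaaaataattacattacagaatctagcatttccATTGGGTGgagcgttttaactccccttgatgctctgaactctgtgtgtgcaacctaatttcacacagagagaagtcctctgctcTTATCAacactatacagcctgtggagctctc

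All 4 windows held 1 match to the GATA motif and at least 1 to CACCC. Over all 32851 RefSeq promoter windows of this length, 26.5% held the GATA motif, 52% CACCC, 33.8% CCAAT and 16% TATAA. In Hbb-bs the matches stood in the order CACCC then CCAAT then TATAA, beginning 90, 76 and 29 bases before the start, with the GATA match 210 bases before it. Alas2 held 3 adjacent CACCC matches on the opposite strand, the nearest 30 bases from the start, and a GATA match 86 bases away. In Ermap the GATA and CACCC matches lay close together, starting 67 and 60 bases before the start. Rhag had its GATA match 31 bases before the start, and its CACCC match overlapped a CCAAT match on the same strand. A match is a run of letters and was not measured as a bound site.

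**Figure D1:**
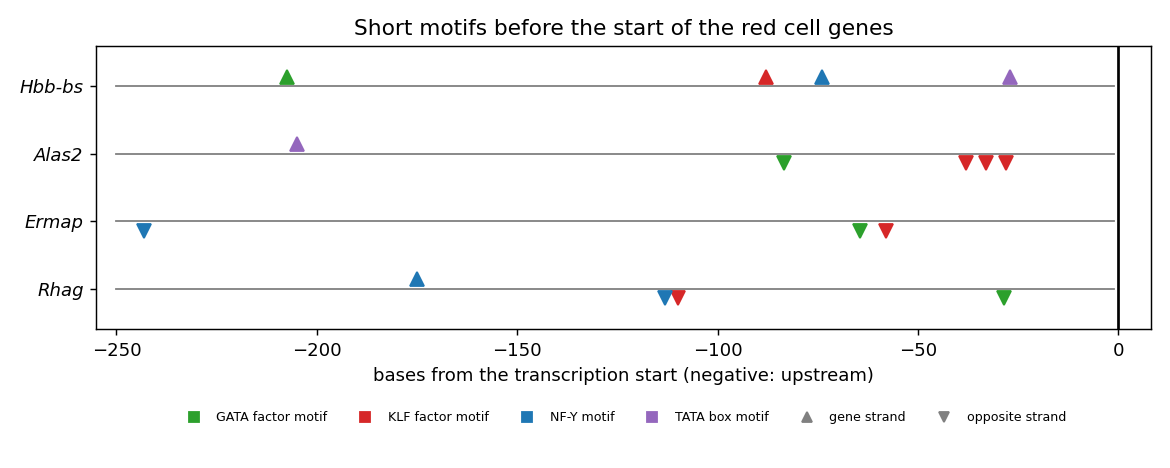
Positions of the motif matches in the 250 bases before the start of Hbb-bs, Alas2, Ermap and Rhag (x axis: bases from the transcription start), coloured by motif, with upward triangles for the gene strand and downward triangles for the opposite strand. Each gene has 1 GATA match, from 210 bases before the start in Hbb-bs to 31 in Rhag.

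The values are RMA log2 expression values, so 1 unit is a 2-fold difference as read on the array, and levels of different genes are not compared. The median level of all named genes, 4.93, serves as a mark of low signal. Babam1 read 7.91 to 8.05 on the WT arrays and 3.87 to 4.29 on the Merit40-/- arrays, and was the single gene of 23185 past an adjusted p of 0.05 in limma (adjusted p = 5.04e-05). All 8 measured HSC markers of a list of 10 lay above that median on all 6 arrays, among them Kit at 10.93 to 11.16 and Slamf1 (CD150) at 7.71 to 8.63. Of this list, the other two genes were not analysed here. Replicates 1 and 3 of Merit40-/- stood apart. The 12 skeletal muscle markers averaged 8.32 on replicate 1 against 4.63 to 4.92 on the other 5 arrays, and 11 of them were highest there. The 8 osteoclast markers averaged 5.37 on replicate 3 against 3.94 to 4.12, with 6 highest and 1 lowest there. On Merit40-/- replicate 2 the 8 basophil and mast cell markers averaged 5.45 against 4.79 to 5.09 elsewhere, but only 3 of them were highest there.

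No red cell gene passed the test between genotypes, and most varied widely within WT. Of the 8 genes, 6 were lower and 2 higher in the Merit40-/- mean, with a median difference of -0.23, against 48.5% lower and a median of 0.0052 over all named genes. In limma 0 of 8 passed an adjusted p of 0.05 (all genes: 0.00431%). At an unadjusted p under 0.05 there were 2, Car1 and Ermap, both lower (all genes: 4.22% in either direction, 1.96% lower and 2.26% higher). The WT and Merit40-/- arrays overlapped for all 8 genes (all genes: 9.05% without overlap). Most markers of erythroid and of megakaryocyte cells were also lower: 8 of 9 measured erythroid markers were lower (median -0.13) and 8 of 10 megakaryocyte and platelet markers (median -0.25), with 0 in either list past the threshold in limma and 0 and 2 at an unadjusted p under 0.05. The integrin gene Itga2b differed by -0.53 (SE 0.13, adjusted p = 0.999 in limma). The part of these cells in the values was not tested. The count of lower red cell genes rested on WT replicate 1: without it 3 of 8 were lower and the median difference was 0.055.

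**Figure D2:**
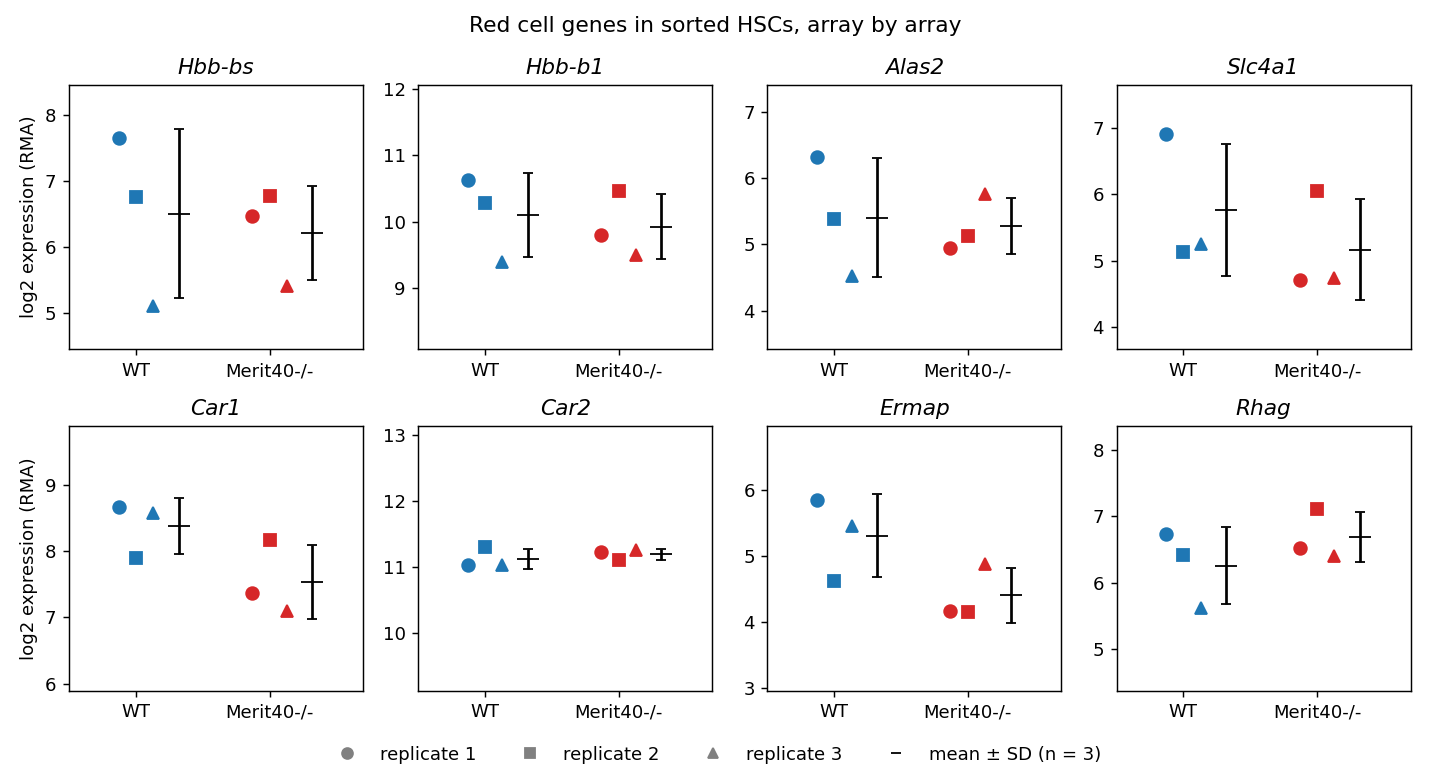
Log2 expression (RMA) of the 8 red cell genes on each array, blue for WT and red for Merit40-/-, with a symbol for each replicate number and the mean ± SD (n = 3) as a bar; every panel spans the same number of log2 units. WT replicate 1 holds the highest value for 6 of the 8 genes, and the genotypes overlap in all panels.

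The beta-globin genes varied more between arrays of 1 genotype than between genotypes. Hbb-bs read 7.64, 6.76 and 5.11 on WT replicates 1, 2 and 3 and 6.47, 6.77 and 5.41 on Merit40-/- replicates 1, 2 and 3. The highest and the lowest array were both WT, 2.53 apart, and 0.332% of all named genes had a span over the 6 arrays at least as wide. The WT mean was 6.50 ± 1.28 (SD, n = 3) and the Merit40-/- mean 6.22 ± 0.71 (SD, n = 3), a difference of -0.29 (SE 0.60, 95% interval -1.68 to 1.10, adjusted p = 0.999 in limma). The interval includes changes of over 1 log2 unit in either direction. Without WT replicate 1 the difference was 0.28, and without Merit40-/- replicate 3 it was 0.11.

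Hbb-b1 read 10.63, 10.28 and 9.39 in WT and 9.80, 10.46 and 9.49 in Merit40-/-. As for Hbb-bs, WT replicate 1 was highest and replicate 3 of each genotype lowest. The difference was -0.18 (SE 0.34, 95% interval -0.97 to 0.61, adjusted p = 0.999 in limma), and it was 0.083 without WT replicate 1 and 0.031 without Merit40-/- replicate 3. Hbb-bs and Hbb-b1 are adult beta-globin genes of alternative haplotypes with closely similar transcripts, so probes of one can read the other and their 2 rows are not independent measures. Both genes stood above the median of all genes on all 6 arrays.

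The arrays lowest for globin also had the lowest mean of the granulocyte and monocyte markers, though the markers differed among themselves. The 11 measured granulocyte and monocyte markers of a list of 12 averaged 8.53 on WT replicate 3 and 8.54 on Merit40-/- replicate 3, against 8.70 to 9.02 on the other 4 arrays. Both arrays lay below the other 4 for 4 of the 11 genes, the neutrophil granule genes Ltf, Camp and Ngp and the calprotectin gene S100a8. The share of all named genes ordered this way was not computed, so this count does not set the markers apart. Ltf read 7.69 and 7.51 on them and 8.28 to 8.57 on the others. The protease gene Prtn3 instead read 8.22 and 7.96 on them and 7.80 to 8.24 on the others, and Csf1r was highest on Merit40-/- replicate 3. By contrast, the 9 measured erythroid markers of a list of 12 averaged 5.37 and 5.38 on them and 5.17 to 5.56 on the others. The part of other marrow cells in the globin signal was not tested. In such bulk RNA, fewer cells of a type and less RNA per cell cannot be told apart.

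Alas2, of the first step of haem synthesis, did not pass the test. It read 6.32, 5.38 and 4.52 in WT and 4.95, 5.13 and 5.76 in Merit40-/-, so that WT replicate 1 was highest, WT replicate 3 lowest and the Merit40-/- arrays lay between them. The difference was -0.13 (SE 0.42, 95% interval -1.09 to 0.83, adjusted p = 0.999 in limma). It was 0.33 without WT replicate 1 and 0.040 without Merit40-/- replicate 1. Merit40-/- replicate 3, low for both beta-globin rows, was the second highest array for Alas2.

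Slc4a1, which encodes band 3, exchanges chloride for bicarbonate and anchors the membrane skeleton. It read 6.92, 5.13 and 5.26 in WT and 4.71, 6.05 and 4.74 in Merit40-/-. One array of each genotype was high, WT replicate 1 and Merit40-/- replicate 2, and 4 of 6 arrays were above the median of all genes. The difference was -0.60 (SE 0.52, 95% interval -1.80 to 0.60, adjusted p = 0.999 in limma), and without WT replicate 1 it was -0.026.

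Rhag, which encodes a channel-like partner of the Rh blood group proteins, was the exception among the variable genes in having its highest value in Merit40-/-. It read 6.74, 6.41 and 5.62 in WT and 6.53, 7.11 and 6.41 in Merit40-/-. WT replicate 3 was the low array, and the others overlapped. The difference was 0.43 (SE 0.30, 95% interval -0.26 to 1.11, adjusted p = 0.999 in limma), and it was 0.11 without WT replicate 3.

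Ermap, an immunoglobulin-family protein of the erythroid membrane that carries the Scianna blood group in humans, had the lowest difference of the 8 genes. It read 5.85, 4.62 and 5.46 in WT and 4.18, 4.16 and 4.88 in Merit40-/-. WT replicates 1 and 3 lay above every Merit40-/- array, while WT replicate 2 lay below Merit40-/- replicate 3. The difference was -0.90 (SE 0.32, 95% interval -1.65 to -0.16), or 1.87-fold lower in Merit40-/-, with an unadjusted p of 0.0229 and an adjusted p of 0.999 in limma. Among all named genes, 1.77% had an unadjusted p at least as small. On the 4 arrays other than WT replicates 1 and 3 its level lay below the median of all genes, where RMA compresses differences. With any 1 array left out the difference stayed below 0, from -1.25 to -0.63.

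Car1, a cytosolic carbonic anhydrase of red cells, read 8.67, 7.90 and 8.58 in WT and 7.37, 8.17 and 7.09 in Merit40-/-. Its level on Merit40-/- replicate 2 exceeded that on WT replicate 2, and the other 2 Merit40-/- arrays were below all WT arrays. The difference was -0.84 (SE 0.30, 95% interval -1.54 to -0.14), or 1.79-fold lower in Merit40-/-, with an unadjusted p of 0.0241 and an adjusted p of 0.999 in limma. Its lowest arrays were those with muscle and osteoclast transcripts: the difference was -0.75 without Merit40-/- replicate 1 and -0.61 without Merit40-/- replicate 3. Each of these differences still includes the other of those arrays. The remaining array, Merit40-/- replicate 2, read 8.17 against a WT mean of 8.38. The part of such transcripts in the Car1 difference was not tested.

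Car2, the carbonic anhydrase found in many tissues beside red cells, hardly varied. It read 11.02, 11.30 and 11.03 in WT and 11.23, 11.10 and 11.25 in Merit40-/-, a span of 0.27 that 86.3% of all genes matched or exceeded. The difference was 0.075 (SE 0.13, 95% interval -0.22 to 0.37, adjusted p = 0.999 in limma), and this interval lies within 2-fold. On each of the 6 arrays, Car2 and Car1 lay on opposite sides of their own means, but Car2 was never more than 0.14 from its mean. A relation between the genes was not tested.

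**Figure D3:**
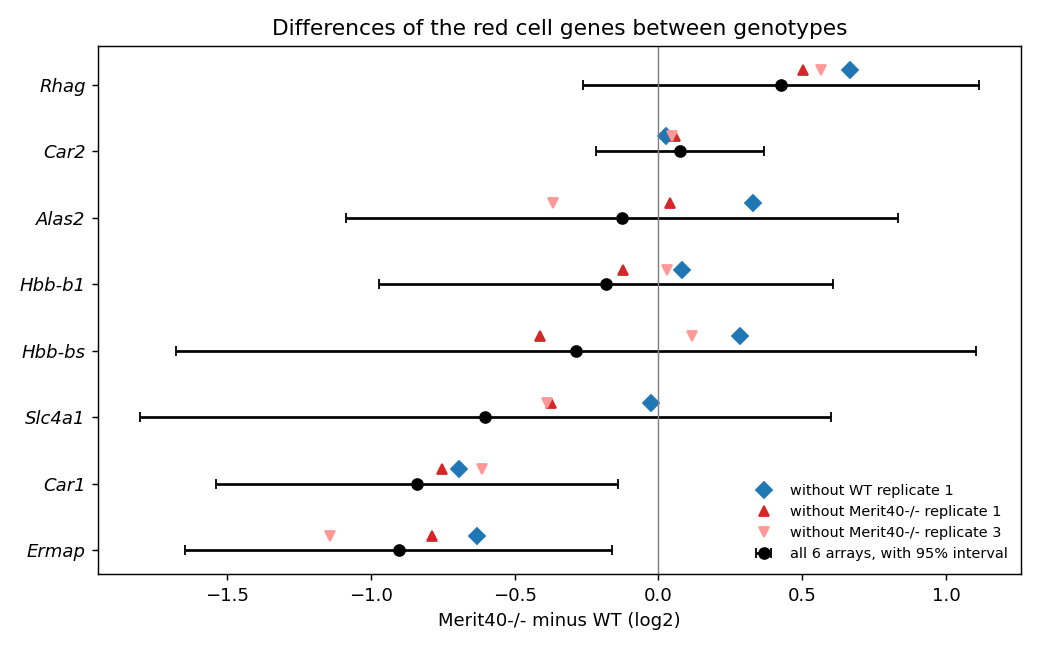
Difference Merit40-/- minus WT (log2, x axis) for the 8 red cell genes with all 6 arrays (black, bars: 95% interval) and with WT replicate 1, Merit40-/- replicate 1 or Merit40-/- replicate 3 left out (coloured symbols). Hbb-bs, Hbb-b1 and Alas2 cross 0 without WT replicate 1, while Car1 stays at -0.69 and Ermap at -0.63.

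The 6 arrays were then compared one by one over the 8 genes. WT replicate 1 was the highest array for 6 genes and above the mean of the 6 arrays for 7, with a median deviation of 0.84 from that mean. Over all named genes WT replicate 1 was highest for 14.6%, and its median deviation was -0.0077. WT replicate 3 was the lowest array for 4 genes (all genes: 15.4%), with a median deviation of -0.41. Merit40-/- replicate 2 was above the mean for 5 genes with a median deviation of 0.31, and the median deviations of Merit40-/- replicates 1 and 3 were -0.30 and -0.29. The median deviation of WT replicate 2 was -0.0069.

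Erythroid markers outside the 8 genes leaned high on WT replicate 1, but not all were highest there. Their median deviation from their own means was 0.15 on it, the highest of the 6 arrays. The 9 measured markers of the list averaged 5.56 there, against 5.43 and 5.37 on the other WT arrays and 5.17 to 5.38 in Merit40-/-. This array was the highest for 4 of the 9, Klf1, Kel, Epb42 and Add2 (all genes: 14.6%), and the lowest for 0 (all genes: 16.4%). Hemgn was highest on WT replicate 2, Cldn13 on WT replicate 3 and the transferrin receptor gene Tfrc on Merit40-/- replicate 2. Trim10 and Tspo2 were highest on Merit40-/- replicate 3. Klf1 read 5.75 on WT replicate 1 and 5.14 to 5.60 elsewhere, and Tfrc read 7.53, within the 7.43 to 7.67 of the other arrays. Kel, a blood group antigen gene, read 4.74 there and 4.12 to 4.34 elsewhere, below the median of all genes on every array. The mean of the 8 HSC markers was lowest on the same array, at 8.11 against 8.30 to 8.56 on the other 5. Of these markers 7 were lowest there (all genes: 16.4%), while Kit was lowest on WT replicate 2. Whether the makeup of the sorted cells differed on this array was not tested.

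**Figure D4:**
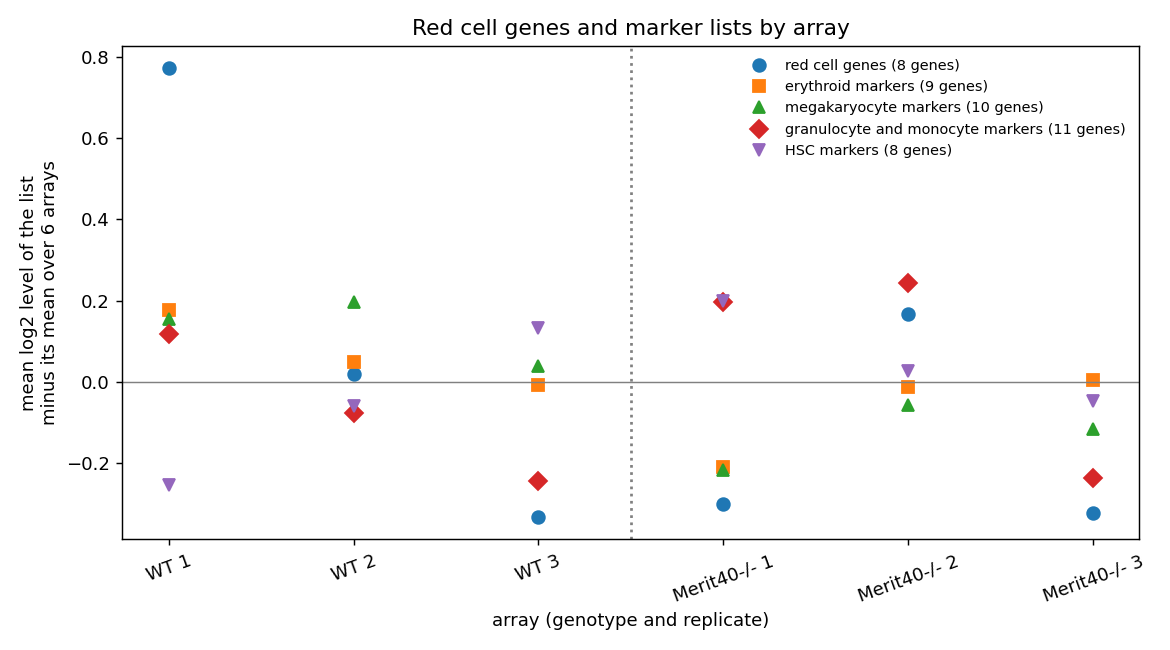
Mean log2 level of the 8 red cell genes and of 4 marker lists on each array, minus the mean of the list over 6 arrays (y axis, log2), with WT left and Merit40-/- right of the dotted line. The red cell genes and erythroid markers are highest on WT replicate 1, where HSC markers are lowest, and the granulocyte markers are lowest on replicate 3 of each genotype.

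As a group the red cell genes were among the more variable genes of the array set. Of the 8, 7 spanned at least 1 log2 unit from the lowest to the highest array, which 8.30% of all named genes did. Their median span was 1.64, compared with 0.49 over all named genes. The spans were 2.21 for Slc4a1, 1.80 for Alas2, 1.69 for Ermap, 1.58 for Car1, 1.50 for Rhag and 1.24 for Hbb-b1. For Hbb-bs, Hbb-b1, Alas2, Slc4a1 and Rhag the span within WT alone exceeded 1 log2 unit, as it did for Ermap at 1.23. Within Merit40-/- the span exceeded 1 log2 unit only for Hbb-bs at 1.36, Slc4a1 at 1.34 and Car1 at 1.08.

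**Figure D5:**
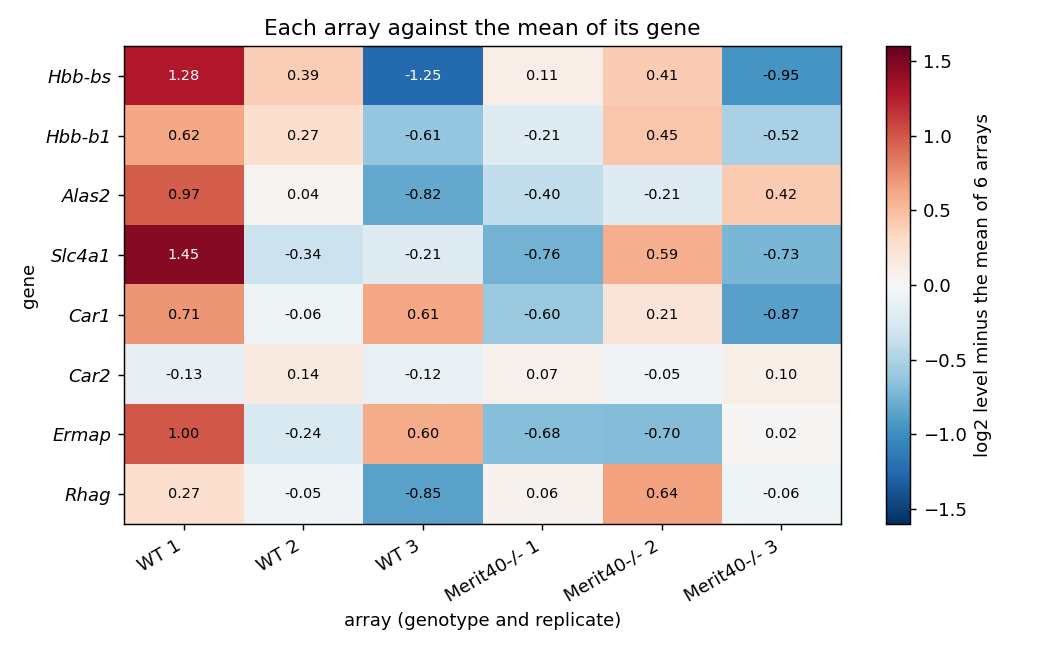
Deviation of each array (columns) from the mean of the 6 arrays for each red cell gene (rows), in log2 units, red above and blue below the mean. WT replicate 1 is red for 7 of 8 genes, and the remaining arrays do not share 1 order across genes.

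The 7 variable genes did not share a single pattern. Likeness was measured as the root mean square difference of mean-centred values over the 6 arrays, where 0 is the same pattern at the same size. The values were not scaled, so genes of unlike span lie apart on this measure even where their arrays rank alike. The closest pair was Hbb-b1 and Rhag at 0.32, followed by Hbb-bs and Hbb-b1 at 0.44 and Slc4a1 and Car1 at 0.50. Hbb-bs and Ermap were the least alike at 1.05, on the same side of their means on 1 of 6 arrays. For Hbb-bs, 5 genes outside predicted loci that spanned at least 1 unit came closer than Hbb-b1. For Hbb-b1, 254 such genes came closer than Hbb-bs. The 6 arrays nevertheless ranked in the same order for Hbb-bs and Hbb-b1, over spans of 2.53 and 1.24.

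No red cell gene was among the 3 closest genes of another, in a search of 1610 genes. For Hbb-bs these were Krtap5-2 (0.24), Akirin1 (0.27) and the formyl peptide receptor gene Fpr2 (0.33), and for Hbb-b1 Tnnt1 (0.15), Zdhhc15 (0.16) and Gimap3 (0.16). For Alas2 they were Fsbp (0.15), Fzd3 (0.18) and Tlr7 (0.21), and for Slc4a1 Ublcp1 (0.34), Mir5107 (0.41) and Cds1 (0.41). Car1 had Pramel4 (0.12), Lzts1 (0.23) and Krt10 (0.25), and Ermap had Ighv1-62-3 (0.20), the metallothionein gene Mt2 (0.23) and Pin4 (0.24). The closest genes to Rhag were the transferrin gene Trf (0.14), Cbx6 (0.14) and Slfn4 (0.15). With 6 arrays and this many genes close matches are common, and the lists describe these arrays alone.

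Among the other genes of the haem pathway and its iron supply, none passed the test. Of 27 measured genes of a list of 29, 15 were lower and 12 higher, 0 passed in limma over all genes (3 at an unadjusted p under 0.05, or 11.1%, against 4.22% of all genes), and the median difference was -0.030. All Merit40-/- arrays lay above all WT arrays for 2 genes (all genes: 4.84%) and below them for 1 (all genes: 4.22%). Hmox1, which degrades haem, read 7.63, 7.37 and 7.55 in WT and 7.73, 8.38 and 8.21 in Merit40-/-, a difference of 0.59 (SE 0.18, unadjusted p = 0.0114, adjusted p = 0.999 in limma). Cpox, a late enzyme of haem synthesis, read 6.45, 6.58 and 6.50 in WT and 6.69, 7.22 and 7.26 in Merit40-/- (difference 0.54, SE 0.17, adjusted p = 0.999 in limma). In both genes every Merit40-/- array lay above every WT array. Ireb2, an iron-responsive RNA-binding protein gene, differed by -0.35 (SE 0.14) without overlap, and Flvcr1, described as a haem exporter gene, by -0.45 (SE 0.23) with overlap. The housekeeping enzyme gene Alas1 differed by -0.059 (SE 0.23), Fech, of the last step of the pathway, by 0.059 (SE 0.13) and the mitochondrial iron importer gene Slc25a37 by -0.0031 (SE 0.16).

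Genes of the red cell membrane and its spectrin skeleton had 17 of 27 measured members lower (63.0%, all genes: 48.5%) and 10 higher (list of 30), with a median difference of -0.099 and 0 passing in limma (3 at an unadjusted p under 0.05, or 11.1%, against 4.22% of all genes). For 3 genes (11.1%, all genes: 4.22%) all Merit40-/- arrays were below all WT arrays. The adhesion gene Icam4 read 7.27, 7.96 and 7.31 in WT and 7.20, 6.96 and 7.04 in Merit40-/- (difference -0.45, SE 0.20). The beta-spectrin gene Sptb differed by -0.31 (SE 0.12) at levels below the median of all genes, and Cd59a, which protects cells from complement, by 0.42 (SE 0.16) with overlap. The third of them was Ackr1, the Duffy antigen gene, at 4.26, 4.10 and 4.24 in WT and 4.03, 4.01 and 3.64 in Merit40-/-, below the median of all genes on every array.

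The measured embryonic and minor globin genes of the beta and alpha loci were dim. All 6 measured genes of a list of 10 had both genotype means below the median of all genes, with differences from -0.38 for the theta-globin gene Hbq1a to 0.19 for the embryonic gene Hbb-y. The other genes of that list, Hbb-bt, Hbb-b2, Hba-a2 and Ahsp, were not analysed here. Among 14 other carbonic anhydrases, 6 were lower and 8 higher, with a median difference of 0.0088. The extremes were Car15 at -0.34 (SE 0.17) and the muscle form Car3 at 0.21 (SE 0.32), which read 6.16 on Merit40-/- replicate 1, the array with muscle transcripts, and 4.97 to 5.57 elsewhere. The other bicarbonate transporters and Rh proteins had 8 of 11 measured members lower (list of 12), from -0.34 for Slc4a3 to 0.35 for Slc4a10. In these 3 lists 0 genes passed in limma, and 0 had an unadjusted p under 0.05.

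Regulators of erythroid genes had 12 of 18 members lower (66.7%, all genes: 48.5%), a median difference of -0.018 and 0 passing in limma (2 at an unadjusted p under 0.05, or 11.1%, against 4.22% of all genes). Gata1 read 7.54, 7.55 and 7.41 in WT and 6.86, 7.29 and 7.23 in Merit40-/-, without overlap (difference -0.37, SE 0.14, unadjusted p = 0.0328, adjusted p = 0.999 in limma). The cell cycle repressor gene E2f4 differed by -0.50 (SE 0.18), also without overlap, and the globin repressor gene Zbtb7a by 0.47 (SE 0.27). Klf1 differed by -0.29 (SE 0.16). Late erythroblast and reticulocyte genes, a list of 33 that shares Cpox, Fech, Rhd, Kel and Epb42 with the lists above, had 13 of 28 measured members lower, with a median difference of 0.0093 and 0 passing in limma (1, Cpox, at an unadjusted p under 0.05). Its lowest member was Trim58, a ubiquitin ligase gene of late erythroblasts, at -0.38 (SE 0.18), and its highest was Cpox.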

How the data were processed

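The authors deposited log2 values for each probe set on each array, made with RMA and affy, per the submitters' processing notes. RMA corrects background, equalizes intensities between arrays and summarises probes, which removes overall differences in RNA yield and compresses differences of dim genes. Versions, chip definition and build: not given in the sources used here. Probe sets carry Entrez Gene numbers: of 25206, 23185 had 1 gene symbol, none had more (0), and 2021 had no name here and were left out. All 23185 were tested without a filter, with limma 3.58.1 in R 4.3.3 (lmFit, eBayes, genotype only, 2-sided, Benjamini-Hochberg adjustment over 23185 genes, threshold 0.05). The procedure was tested on simulated data. Differences are Merit40-/- minus WT. Precision is limited by the number of arrays, with a 95% interval of ±0.342 at the median gene.

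The members and lists were chosen with earlier results of these data known. The rule for names took, in each pathway list, genes past the threshold, the highest and lowest difference, and up to 4 others with an unadjusted p under 0.05. It also took the 3 genes with the closest pattern to each member spanning at least 1 log2 unit. Ackr1, Klf1, Tfrc, Kel, Epb42, Add2, Hemgn, Cldn13, Trim10, Tspo2, Itga2b, Ltf, Camp, Ngp, S100a8, Prtn3, Csf1r, Alas1, Fech and Slc25a37 were named after their values were seen or as markers. Alternatives were a replicate block, trend and robust eBayes, array weights, median centring, quantile normalization, no dimmest 30%, all probe sets, and each array left out. Promoter letters are RefSeq's (GRCm38.p6).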

Additional observations from a re-analysis of the deposited data

How the results depend on the processing

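Babam1 was the single gene past the threshold, and 0 of the 8 red cell genes passed, under all alternatives run. The number of red cell genes lower in Merit40-/- was 6 under the alternatives with all arrays and 3 to 6 with 1 array left out, the lowest without WT replicate 1. Among the red cell genes, 3 differences changed sign, each only with an array left out: Hbb-bs ranged from -0.98 to 0.28, Hbb-b1 from -0.53 to 0.083 and Alas2 from -0.57 to 0.33. Hbb-y ranged from -0.12 to 0.48 and Car3 from -0.17 to 0.43, both likewise. The other 98 of 104 differences of red cell genes kept their sign, and the smallest adjusted p of any was 0.966 in limma. WT replicate 1 was the highest array for 6 genes under both other scalings. Of the 3 genes closest in pattern to Hbb-b1, 1 to 2 were kept under them, and 2 to 3 or all 3 for the other variable genes. Over all named genes, deviations of same-numbered arrays correlated at -0.048, -0.0027 and 0.044, and those of differently numbered arrays at -0.066 to 0.070. The labels do not say whether equal numbers mark paired arrays, and these correlations cannot decide it. The replicate block left 1 gene past the threshold and no red cell gene (adjusted p = 0.9997 for each in limma). With 3 arrays per genotype, differences of the size seen for Car1 (-0.84) and Ermap (-0.90) did not pass the adjusted threshold.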
